A study of Mus musculus with 6 samples.

Results

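The Aurora kinase genes and the genes of their activators, scaffolds and chromosomal passenger partners form a set of 10 of the 21887 mouse protein-coding genes of the RefSeq annotation used here. They were taken by name from a list chosen with earlier results of these data known. The kinases are Aurka, Aurkb and Aurkc, and the activators and scaffold are Tpx2, Bora and Cep192. Plk1 is the partner kinase, and Incenp, Birc5 and Cdca8 are the passenger genes. c-Myc binding at these genes was read from chromatin immunoprecipitation with sequencing (ChIP-seq) in PB115, PB119 and PB120, which are 3 cell lines of mouse lung cancer, each with 1 c-Myc ChIP library and 1 input library of unprecipitated chromatin. The labels used here give the lines by name alone, and all libraries came from cells fixed in 1% formaldehyde. No line had a replicate, so no test between lines was possible and the intervals below cover counting error only. The deposited list of PB115 gave 7830 peaks from 40494386 filtered ChIP tags, that of PB119 gave 13527 from 40726886, and that of PB120 gave 5168 from 32299364.

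Aurora A works at centrosomes and spindle poles, where Cep192 recruits it, Tpx2 activates it on spindle microtubules and Bora lets it switch on Polo-like kinase 1, the product of Plk1. Aurora B is the kinase of the chromosomal passenger complex, which Incenp scaffolds and which survivin (Birc5) and borealin (Cdca8) bring to the inner centromere, and Aurora C is best known from germ cells. c-Myc binds DNA with Max at E-boxes, and Aurora A protein is known to bind and stabilise N-Myc, which is why Aurora kinase inhibitors have been studied in MYC-driven tumours. Many genes of mitosis carry CCAAT boxes, bound by NF-Y, and a cell cycle element of the letters TTTGAA, bound by the DREAM and MuvB complexes.

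A gene is called bound where a peak summit lay within 1000 bp of either annotated end, and its values are those of its peak of highest fold. Fold is the authors' ratio of ChIP to local input coverage with 1 added to both. By this rule 6 of the 10 genes were bound in PB115 (beside 23.6% of all coding genes), 6 in PB119 (beside 35.3%) and 2 in PB120 (beside 16.4%). Aurka and Birc5 were bound in all 3 lines, as were 14.4% of coding genes. Aurkb, Bora, Incenp and Cep192 were bound in PB115 and PB119 but not in PB120, a pattern of 8.97% of coding genes. Aurkc, Tpx2, Plk1 and Cdca8 had no summit in any line, either inside the gene or up to 1000 bp beyond an end. In all coding genes, 64.1% had no summit within the window in any line, and 57% had none there or inside the gene. Each bound gene had a single summit in the window in each line, and none had a summit deeper inside the gene.

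**Figure D1:**
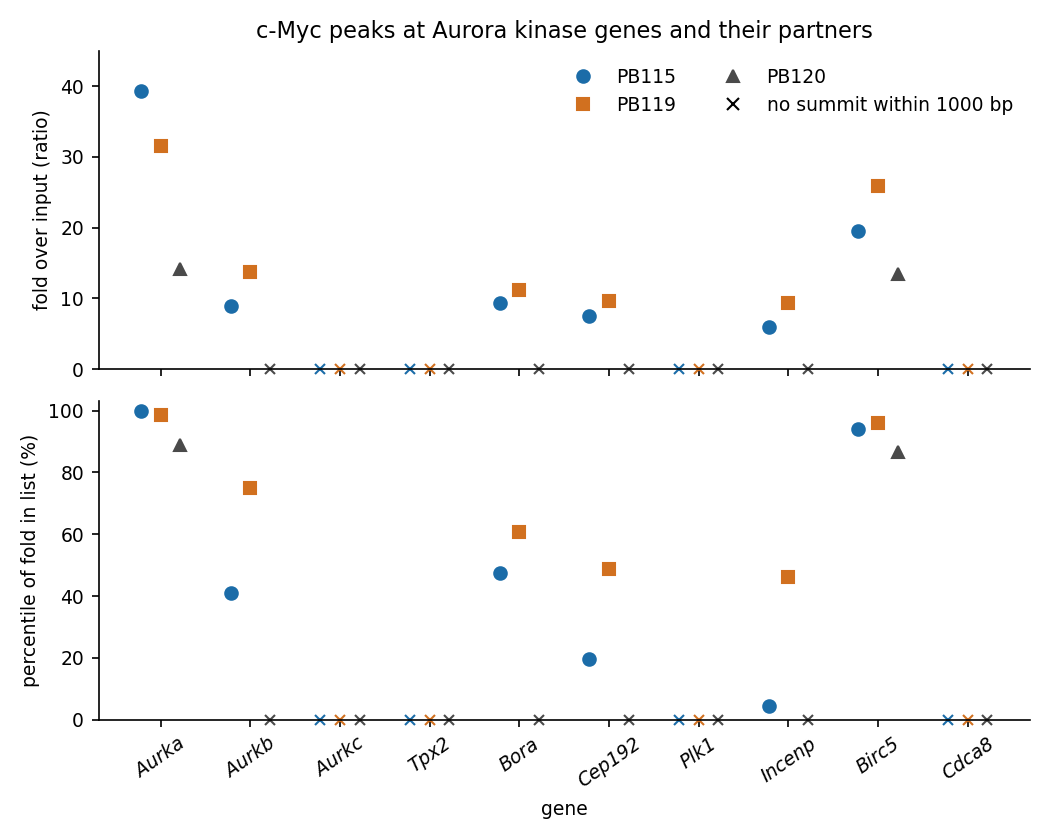
Fold of the c-Myc peak over input (upper panel) and the percentile of that fold among all peaks of the same list (lower panel) at each gene, with 1 point per line and a cross where no summit lay within 1000 bp of an end. Aurka and Birc5 stand at percentiles of 86.6 or more in every list, while the other bound genes lie between 4.52 and 75.0.

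The sequence under the Aurka peak shows where c-Myc was centred at the gene of highest fold in the set. RefSeq promoter windows of build GRCm38.p6, the assembly of mm10, run from 250 bases before a transcription start to 50 bases after it, and 5 of the 10 genes had one (Aurka, Aurkc, Birc5, Cdca8 and Plk1). Each window was searched on both strands for the canonical E-box CACGTG, for the variant with CpG letters CACGCG, for the variant CATGTG and for the variant CATGCG, and also for the cell cycle element TTTGAA and the NF-Y box CCAAT. The windows of Aurka and of its divergent neighbour Cstf1 overlap end to end on opposite strands, at chr2:172370521-172370820 (minus strand) and chr2:172370753-172371052 (plus strand). They are printed 5′ to 3′ on the strand of each gene, with every match in capitals.
Aurka: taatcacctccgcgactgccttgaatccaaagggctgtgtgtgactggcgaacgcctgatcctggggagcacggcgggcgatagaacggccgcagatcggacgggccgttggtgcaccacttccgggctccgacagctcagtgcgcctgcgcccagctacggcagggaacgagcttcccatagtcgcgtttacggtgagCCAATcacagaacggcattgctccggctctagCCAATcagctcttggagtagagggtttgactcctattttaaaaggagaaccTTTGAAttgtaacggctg
Cstf1: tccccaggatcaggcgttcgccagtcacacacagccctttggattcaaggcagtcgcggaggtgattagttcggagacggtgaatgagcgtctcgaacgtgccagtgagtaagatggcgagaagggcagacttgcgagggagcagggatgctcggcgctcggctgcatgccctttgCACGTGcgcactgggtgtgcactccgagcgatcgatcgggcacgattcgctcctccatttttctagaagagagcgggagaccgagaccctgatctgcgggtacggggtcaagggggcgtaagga
The Aurka window held 2 CCAAT boxes, starting 51 and 19 bases before the start, and TTTGAA from base 33 after it (the start being base 1), and no match to the E-box letters searched. The Cstf1 window held a CACGTG at bases 172370929 to 172370934, that is 74 bases before the Cstf1 start and 359 bases before that of Aurka. The annotated extent of Aurka reaches 316 bases before that Aurka start. Whether this E-box falls in an Aurka window thus depends on the start used.

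The c-Myc summits at Aurka lay beside this E-box. The PB115 and PB120 summits stood at base 172370925, 4 bp from the nearest base of CACGTG, and the PB119 summit at base 172370912, 17 bp from it, and the E-box was inside the peak of each line. Of coding-gene promoter windows that held both a summit and a CACGTG, the median gap between them was 23 bp over 565 windows of PB115, 25 bp over 715 of PB119 and 28 bp over 476 of PB120. CACGTG occurred in 7.84% of all coding-gene windows of this length. Among coding-gene windows holding a summit the share was higher, at 19.65% in PB115, 16.7% in PB119 and 20.49% in PB120. In PB115, PB119 and PB120 the summits were 355, 342 and 355 bp upstream of the Aurka start of the promoter table and 78, 91 and 78 bp upstream of the Cstf1 start. By these starts they were closer to Cstf1, which encodes a subunit of the cleavage stimulation factor of mRNA 3′ end formation. Every value given for Aurka is equally a value for Cstf1. The annotated extents of these genes overlap, so the same summits lie 39, 26 and 39 bp outside Aurka and 280, 267 and 280 bp inside Cstf1. By these annotated ends, which the calls used, the summits were instead closer to Aurka. The CCAAT and TTTGAA letters of Aurka were inside the PB119 peak, and outside those of PB115 and PB120.

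**Figure D2:**
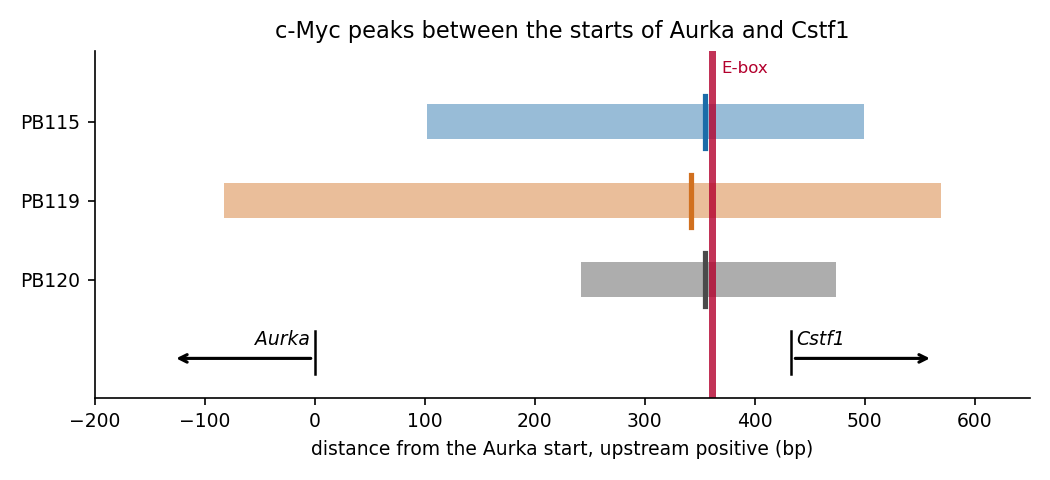
Peaks (bars) and summits (vertical ticks) of the 3 lines along the distance in bp from the Aurka start, with upstream positive, the starts and directions of Aurka and Cstf1, and the E-box as a vertical band. The summits lie 342 to 355 bp upstream of the Aurka start, next to the E-box, and the PB120 peak is the shortest.

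Aurka had the highest fold of the set in every line. In PB115 its fold of 39.3 was rank 11 of 7830 peaks. In PB119 its fold of 31.5 was rank 212 of 13527, and in PB120 its fold of 14.1 was rank 575 of 5168. By fold it is thus near the top of every list, and furthest from it in PB120. By fragments at the summit it stood at percentiles of 99.4 (PB115), 99.5 (PB119) and 74.0 (PB120) of the lists. The peak spanned chr2:172370672-172371069 in PB115 (398 bp long), chr2:172370487-172371139 in PB119 (653 bp long) and chr2:172370812-172371044 in PB120 (233 bp long), against list medians of 270, 286 and 247 bp.

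The order of these folds did not follow the ChIP coverage. Whole fragments recovered from the deposited coverage numbered 167 for PB115 and 168 for PB119, with 51 for PB120. Per 10000000 ChIP tags these are 41.2 for PB115 (exact Poisson 95% interval 35.2 to 48.0), 41.3 for PB119 (35.2 to 48.0) and 15.8 for PB120 (11.8 to 20.8). The ratio of PB115 over PB119 was 1.00 (interval 0.802 to 1.25), so the coverage of these libraries did not differ beyond counting error. The local input background recovered from the fold was 2.0 in PB115 and PB120 and 4.0 in PB119, low in the PB115 and PB120 lists (at or above 12.2% and 16.1% of their peaks) and high in PB119 (82.0%). Of 3153 genes bound in all 3 lines, 10.9% had like Aurka a higher fold in PB115 than in PB119. A background this small rests on few input fragments, and its counting error was not included in any interval.

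In PB120 the coverage at Aurka was low for a site common to the lines. PB120 over PB115 gave a ratio of 0.383 (0.274 to 0.527), against a median of 0.896 and quartiles of 0.726 and 1.13 over the 3748 regions with a peak in every line, and 0.320% of these regions had a ratio as low. PB120 over PB119 likewise gave 0.383 (0.274 to 0.526), against a median of 0.776, with 1.60% of regions as low. Among the 133 common regions with fragments within 20% of those of Aurka in PB115 the median ratio was 0.700, and 4 regions including Aurka, or 3.01%, were as low. Among the 229 such regions for PB119 the median was 0.610, and 18 regions, or 7.86%, were as low. Regions picked for a high count in PB115 or PB119 can have a lower ratio through that choice alone, so these medians are descriptions. With 1 library per line, a difference between these cultures and one between preparations cannot be told apart.

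Birc5, the survivin gene, was the other gene bound in every line, and unlike Aurka it shared its summit with no other coding gene. In PB115 its fold of 19.5 was at percentile 94.2 of the list, in PB119 the fold of 25.8 was at 96.1, and in PB120 that of 13.4 was at 86.6. Its PB115 summit held 110 fragments, or 27.2 per 10000000 tags (22.3 to 32.7). The PB119 summit held 122, or 30.0 (24.9 to 35.8), and the PB120 summit 65, or 20.1 (15.5 to 25.7). Coverage at Birc5 was below that at Aurka in PB115, where the intervals of the genes do not overlap. It was also lower in PB119 and was higher in PB120, and in both lines the intervals overlap. Overlap of separate intervals does not show that the coverage of the genes was equal. The ratio of PB120 over PB115 was 0.741 (0.537 to 1.02), beside a median of 0.720 over 576 common regions within 20% of its fragments in PB115. PB120 over PB119 gave 0.672 (0.489 to 0.915), an interval below 1, beside a median of 0.624 over 681 such regions for PB119. The summits lay 65, 37 and 64 bp before the annotated start, in peaks at chr11:117848891-117849472 in PB115, chr11:117848916-117849565 in PB119 and chr11:117848928-117849321 in PB120.

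**Figure D3:**
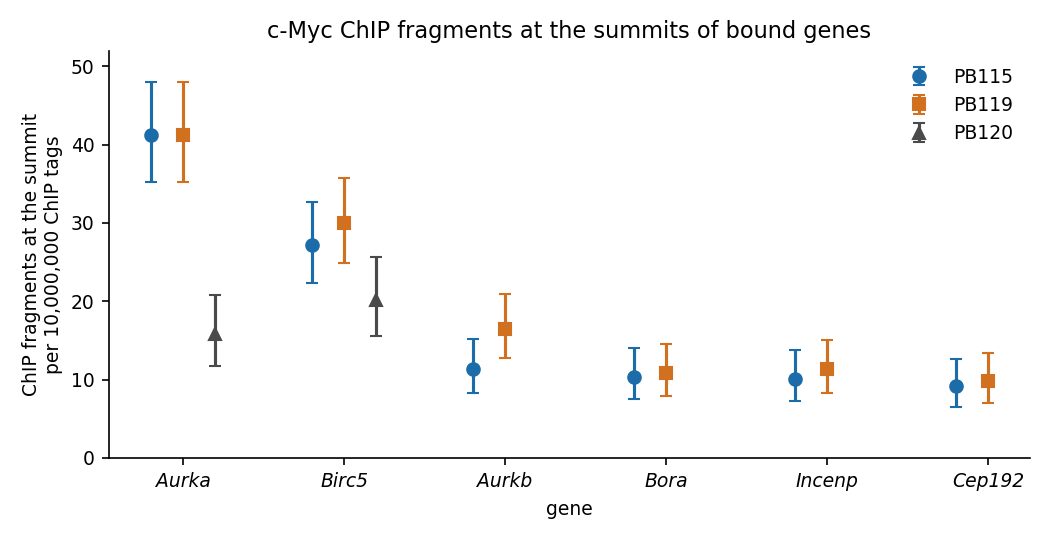
ChIP fragments at the summit per 10000000 filtered ChIP tags for the 6 bound genes, with exact Poisson 95% intervals as bars and no symbol where PB120 had no listed peak. Aurka is at 15.8 in PB120 and at 41.2 and 41.3 in PB115 and PB119, while Birc5 is between 20.1 and 30.0.

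The Birc5 window at chr11:117848987-117849286 (plus strand, GRCm38.p6) is shown because the summits of all 3 lines fall inside it. The capitals mark its single match, CACATG, which is CATGTG read on the other strand.
Birc5: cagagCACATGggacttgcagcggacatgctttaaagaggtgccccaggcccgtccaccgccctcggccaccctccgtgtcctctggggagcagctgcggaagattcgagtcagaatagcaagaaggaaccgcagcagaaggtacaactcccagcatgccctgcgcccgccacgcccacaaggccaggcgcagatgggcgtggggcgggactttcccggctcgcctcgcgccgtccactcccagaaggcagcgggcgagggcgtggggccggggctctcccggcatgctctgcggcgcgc
The match begins 245 bases before the start and lay 175, 203 and 176 bp from the summits of PB115, PB119 and PB120. Neither CACGTG nor the remaining variants are written in this window. CATGTG occurred in 11.5% of coding-gene windows, CACGCG in 12.1% and CATGCG in 7.58%. In windows holding a summit of PB115, PB119 and PB120, CATGTG was rarer, at 8.70%, 8.13% and 8.65%. The absent variants were commoner there, CACGCG at 32.49%, 29.82% and 33.49% and CATGCG at 16.38%, 14.25% and 18.17%.

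The Aurora B gene Aurkb was bound in PB115 and PB119 with moderate folds. The fold was 8.89 in PB115 and 13.8 in PB119, at percentiles of 41.2 and 75.0, with 46 and 67 fragments at summits 145 and 129 bp inside the gene, in peaks at chr11:69045622-69045913 and chr11:69045374-69045949. Per tag, PB115 over PB119 was 0.691 (0.464 to 1.02), an interval that includes 1. A separate c-Myc peak stood upstream of Aurkb in every line. Its PB115, PB119 and PB120 summits were 3830, 3824 and 3818 bp before the annotated Aurkb start, and 32, 26 and 20 bp from n-TWcca7, the nearest of 7 transfer RNA genes in the 10000 bp before Aurkb. This upstream peak had, in the same order of lines, folds of 10.6, 11.4 and 10.2 at 59, 72 and 50 fragments. Per 10000000 tags that is 14.6, 17.7 and 15.5, with PB120 between the other lines at the transfer RNA site. No PB120 peak was listed at Aurkb itself, and the reason was not tested.

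**Figure D4:**
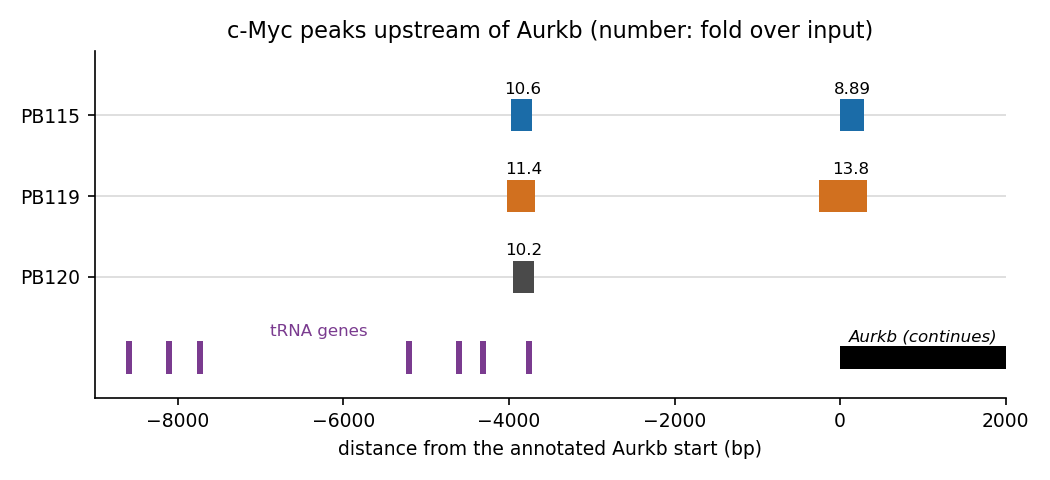
Peaks of the 3 lines (bars, with the fold over input) along the distance in bp from the annotated Aurkb start, with transfer RNA genes and the first part of Aurkb in the bottom row. The upstream peak at the transfer RNA gene is present in PB115, PB119 and PB120, and the peak at the Aurkb start in PB115 and PB119.

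The activator and scaffold genes of Aurora A were bound in PB115 and PB119 at middle or low ranks, or not at all. Bora had folds of 9.37 in PB115 and 11.1 in PB119, at percentiles of 47.4 and 60.7, with 42 and 44 fragments. Its summits lay 661 and 657 bp outside the gene, the farthest of any bound gene of the set, and inside Mzt1, 737 and 733 bp from its end. Mzt1, the gene of a small protein of gamma-tubulin complexes, overlaps the annotated end of Bora and was called through the same peak. The peaks were at chr14:99045633-99045835 in PB115 and chr14:99045601-99046349 in PB119. Cep192 had folds of 7.48 in PB115 and 9.67 in PB119, at percentiles of 19.6 and 48.7, with 37 and 40 fragments at summits 3 and 8 bp inside the gene. Tpx2 was not bound: the nearest summits lay 16197 (PB115), 16199 (PB119) and 16231 bp (PB120) from it, inside Bcl2l1, the gene of the anti-apoptotic protein BCL-XL.

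Of the passenger scaffold and targeting genes, Incenp had the lowest fold of the set. Its fold was 5.95 in PB115 and 9.41 in PB119, at percentiles of 4.52 and 46.1, with 41 and 46 fragments, and the recovered input background there was 4.0 and 3.67. The summits were 59 and 40 bp inside the gene, in peaks at chr19:9899375-9899741 in PB115 and chr19:9899347-9899804 in PB119. Cdca8 was not bound, with the nearest summits 67320 (PB115), 67297 (PB119) and 67327 bp (PB120) away, at Yrdc, a gene of transfer RNA modification.

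The PB115 and PB119 peaks overlapped at all 6 genes, as they did at 95.2% of the 5117 coding genes bound in both lines. The overlap was 203 to 557 bp, with summits 4 to 28 bp apart. At 5 of the 6 genes it covered at least 50% of each peak, beside 76.7% of the 5117 genes, the exception being Bora, whose PB119 peak was 749 bp long and its PB115 peak 203 bp. Between PB120 and PB119, the Aurka peaks overlapped by 233 bp and the Birc5 peaks by 394 bp, with summits 13 and 27 bp apart, and the peaks overlapped at 93.9% of the 3514 coding genes bound in both lines. At 50% of each peak Birc5 was left, beside 54.6% of those genes. Per tag, PB115 over PB119 lay between 0.691 and 1.00 for the 6 genes, beside a median of 0.873 over the common regions, and every interval included 1.

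No PB120 peak was listed at Aurkb, Bora, Incenp or Cep192, which does not show that c-Myc was absent there. The PB119 summits of these genes held 67, 44, 46 and 40 fragments, which at the tag depth of PB120 would be 53.1, 34.9, 36.5 and 31.7. Scaled in its place by 0.616, the median ratio of PB120 to PB119 fragments over the common regions, they would be 41.3, 27.1, 28.3 and 24.6. The PB120 summits held 21 fragments or more, with a median of 41, so both scalings leave all 4 genes above the weakest listed PB120 summit. Aurkb lies at or above the median in both, and the other genes lie below it. Among the 1659 PB120 summits with an input background of 2.5 to 3.5, the fewest fragments were 24, just below the 24.6 of Cep192. The ratio of 0.616 comes only from regions with a PB120 peak, so it can be too high for genes without one. These scalings therefore cannot decide whether depth cost the calls, and the part of depth in the missing calls was not tested. A PB120 peak was also missing at most PB119 peaks of similar fold, and 32.5% of all PB119 peaks overlapped one. Within 10% of the fold of Aurkb, 45.3% of 1558 PB119 peaks overlapped a PB120 peak (Wilson 95% interval 42.9 to 47.8), and the shares were 27.4% of 2163 for Bora, 19.4% of 2751 for Incenp and 20.4% of 2676 for Cep192. Around Aurka and Birc5 the shares were 94.4% of 215 and 89.7% of 429.

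Other rules for calling a gene bound changed the counts of the weaker genes and not those of Aurka and Birc5. At 500 bp from an end, Bora was lost, leaving 5 genes (PB115), 5 (PB119) and 2 (PB120), beside 20.7%, 31.6% and 14.9% of coding genes, with 2 genes bound in all lines (12.6%). At 5000 bp the counts were 6, 6 and 3 beside 29.7%, 42.5% and 21.1%, with 3 in all lines (18.8%), where the third gene was Aurkb through the peak at the transfer RNA gene. With summits inside genes counted they were 6, 6 and 2 beside 28.8%, 42.2% and 20.1%, with 2 in all lines (17.5%). At a p-value of 1e-20, PB115 lost Incenp and Cep192, and the counts were 4, 6 and 2 beside 18.1%, 30% and 11.2%, with 2 in all lines (9.35%). With the 5168 peaks of lowest p kept in every list they were 4, 3 and 2 beside 17%, 18.2% and 16.4%, with 2 in all lines (11.2%), and the equal counts of PB115 and PB119 thus hold for the full lists. Of the 5 genes with a start in the promoter table, Aurka and Birc5 had a summit within 1000 bp of it in every line, where 25.8%, 38% and 17.6% of 17492 coding genes did.

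The promoters of Plk1 and Cdca8 show what was written at genes of the set without a c-Myc peak. They stand at chr7:122159185-122159484 (plus strand) and chr4:124936868-124937167 (minus strand) in GRCm38.p6, with matches to the letters searched in capitals.
Plk1: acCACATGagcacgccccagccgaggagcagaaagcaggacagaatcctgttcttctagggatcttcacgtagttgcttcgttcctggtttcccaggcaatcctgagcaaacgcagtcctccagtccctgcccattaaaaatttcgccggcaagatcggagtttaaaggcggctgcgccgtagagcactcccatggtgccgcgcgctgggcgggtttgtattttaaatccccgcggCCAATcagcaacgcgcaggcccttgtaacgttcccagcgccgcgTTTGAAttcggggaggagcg
Cdca8: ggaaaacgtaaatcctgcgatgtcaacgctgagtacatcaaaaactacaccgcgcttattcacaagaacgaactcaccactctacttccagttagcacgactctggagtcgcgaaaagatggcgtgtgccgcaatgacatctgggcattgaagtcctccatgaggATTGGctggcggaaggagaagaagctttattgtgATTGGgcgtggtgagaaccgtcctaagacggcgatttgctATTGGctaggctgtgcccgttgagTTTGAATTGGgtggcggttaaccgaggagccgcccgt
Plk1 had a CCAAT 14 bases before the start, TTTGAA from base 31 after it and a CACATG 248 bases before it. Cdca8 had 4 CCAAT boxes, all read on the other strand as ATTGG, and TTTGAA from base 14, whose last base is the first of the fourth ATTGG. Neither window held the canonical E-box. The cell cycle element TTTGAA and the CCAAT box were found together in the windows of Aurka, Plk1 and Cdca8, 3 of the 5 genes with a window, and in 6.38% of all coding-gene windows. Each alone was in 16.0% (TTTGAA) and 38.2% (CCAAT) of them. The nearest summits to Plk1 lay 26473 (PB115), 26461 (PB119) and 26451 bp (PB120) away, within 1000 bp of ends of Palb2, the gene of a DNA repair protein that partners BRCA2, and Dctn5. Aurkc, whose window held a CCAAT and none of the other letters, was farthest from any summit, at 295804 (PB115), 295770 (PB119) and 294879 bp (PB120), in each case inside the chloride transporter gene Clcn4.

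The genes with ranks most like those of Aurka were sought among 3152 other genes bound in all 3 lines, by the largest difference in within-list percentile over the 3 lists. Cstf1 has the same peak and so the same values. The next nearest were Eif2s3x (a difference of 1.12 percentage points), Hk2 (1.45) and Hdgf (1.48). Eif2s3x, a translation initiation factor gene, had 29.8 in PB115, 39.8 in PB119 and a fold of 14.5 in PB120. In the same order of lines, the folds of Hk2, a hexokinase gene, were 26.4, 31.7 and 13.6, and those of Hdgf, a growth factor gene, were 30.9, 49.2 and 14.0. In each of these a fold in PB119 exceeded that in PB115, unlike at Aurka.

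The wider Aurora pathway, like coding genes as a whole, had most bound genes in PB119. Of 71 other genes in 4 lists, 40.8% were bound in PB115 (29 genes, beside 23.6% of coding genes), 70.4% in PB119 (50 genes, beside 35.3%) and 33.8% in PB120 (24 genes, beside 16.4%). In all lines 19 were bound (26.8%, beside 14.4%) and in none 20 (beside 64.1%). The lists were chosen with earlier results of these data known, and the coding genes were not limited to expressed ones. The higher shares alone therefore do not show a preference of c-Myc for this pathway. At a p-value of 1e-20 the PB120 count fell to 11 of the 71 and that of all lines to 8 of the 71. The shares of coding genes were then 11.2% and 9.35%. Both pathway shares thus stood nearer to the coding share than in the full lists. With lines in that order, the median fold of the bound genes was 11.1, 12.0 and 8.07, beside 10.4, 11.6 and 9.23 over all bound coding genes. Of the genes bound in all 3 lines, the highest mean percentile belonged to Cep63, a centriole duplication gene, with folds of 19.4 (PB115), 25.0 (PB119) and 12.6 (PB120) at a summit shared with Anapc13. Fzr1, which encodes the Cdh1 activator that directs Aurora A to the anaphase-promoting complex for degradation, had folds of 17.7, 22.1 and 10.4. The anaphase-promoting complex genes Anapc10 and Anapc11 had 28.3, 20.1 and 9.92, and 10.1, 20.6 and 12.2, at summits shared with Abce1 and Alyref. Ran, the small GTPase that releases TPX2 from importins, had 13.0, 33.9 and 11.4.

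Mitotic entry and transcription genes completed the leading 8. Wee1, the kinase that holds back CDK1, had folds of 14.7 (PB115), 25.9 (PB119) and 7.86 (PB120). Mybl2, the B-MYB partner of the MuvB complex, had 14.0, 19.4 and 8.09, and Fbxo5, the EMI1 inhibitor of the anaphase-promoting complex, had 10.5, 16.5 and 9.81. Of 22 genes of mitotic entry, exit and Aurora turnover, 11 (PB115), 16 (PB119) and 10 (PB120) were bound, that is 50%, 72.7% and 45.5%, beside 23.6%, 35.3% and 16.4% of coding genes. Of 14 activators of mitotic gene transcription, 5, 12 and 6 were bound (35.7%, 85.7% and 42.9%). Of 17 passenger loading and midzone genes, 7, 11 and 4 were bound (41.2%, 64.7% and 23.5%), and of 18 scaffold and centrosome genes, 6, 11 and 4 (33.3%, 61.1% and 22.2%). The genes bound in no line included Bub1 and Sgo1, which place the passenger complex at centromeres, and Cenpa, the centromeric histone gene. Plk4, the centriole duplication kinase, and Ccnb2, a cyclin B gene, were also bound in none. All were chosen here after their values were seen, and other genes of the same lists went the other way. Of the 17 passenger loading and midzone genes, 6 were bound in no line and 3 in all lines. Haspin was among the latter, with folds of 6.93 (PB115), 13.6 (PB119) and 10.6 (PB120). The cyclin B gene Ccnb1 was bound in PB115 and PB119. With 5168 peaks kept in every list, 21 of the 71 pathway genes were bound in PB115 (beside 17% of coding genes). PB119 had 28 (beside 18.2%), PB120 had 24 (beside 16.4%) and all lines had 15 (beside 11.2%). The larger PB119 count thus fell by more than 1.5 times when list lengths were equal.

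**Figure D5:**
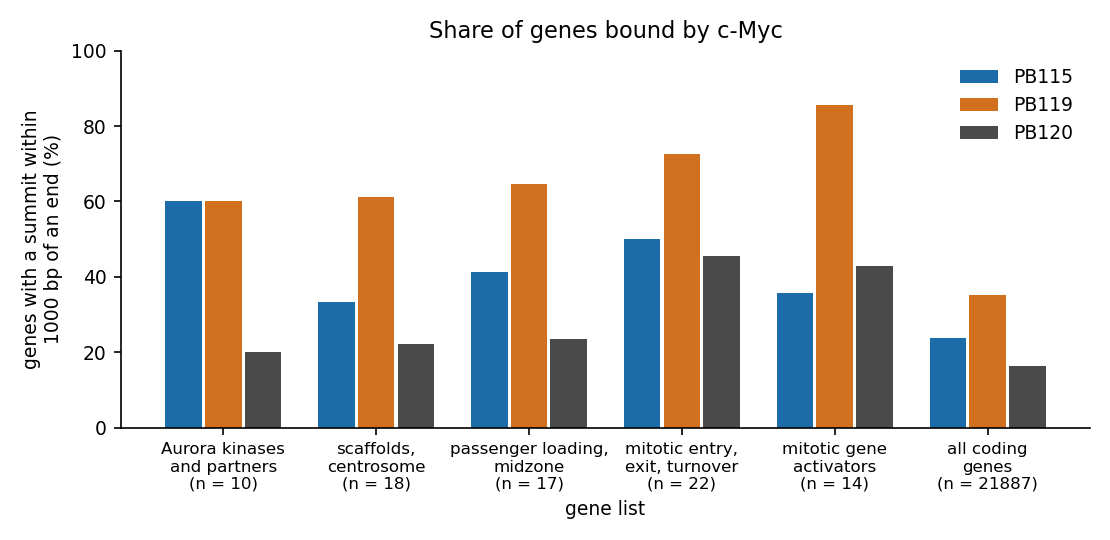
Share of genes in each list whose c-Myc summit was no more than 1000 bp from an end, by line, with all 21887 coding genes at the right. The Aurora kinases and partners are at 60% in PB115 and PB119 and at 20% in PB120, against 23.6%, 35.3% and 16.4% of coding genes.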

How the data were processed

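Per the labels, 20000000 cells per ChIP were fixed for 10 minutes and a c-MYC antibody was used. Bowtie and SAMtools (versions not given in the sources used here), MACS2 and build mm10 stand in the submitters' processing notes. Per the file headers, MACS 2.1.0.20140616 called each ChIP library against the input of its own line at a p-value of 1e-10 with 1 tag per position. The deposited pileup is a signal (coverage) scaled by the authors to the smaller library, and undoing that scale gave whole fragments within 0.02 at every peak. The deposited fold is a ratio with 1 added to both terms, from which the background was recovered. The deposited −log10 p-value served as a filter, and the −log10 q-value was not used. Filtered input tags numbered 28380432, 37979638 and 26156520 in PB115, PB119 and PB120, and the weakest summits held 24, 19 and 21 fragments.

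Genes came from RefSeq GRCm38.p6 (49943 genes). Of the 71 pathway genes 63, and of the 10 main genes 5, had a promoter window. Intervals are exact Poisson, exact binomial for ratios of counts, and Wilson for shares. Named pathway genes were the 8 with the highest mean percentile among those bound in all lines, and the 3 genes most like Aurka by rank. The other pathway genes named were picked after their values were seen. Members and lists were chosen with earlier results of these data known. Calling was tested on simulated data. Python 3.11.15, pandas 2.3.3 and scipy 1.17.1 were used.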

Additional observations from a re-analysis of the deposited data

How the results depend on the processing

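The counts among the 10 genes at other windows and thresholds stand beside the results above. With 5168 peaks in every list, the counts were 4 (PB115), 3 (PB119) and 2 (PB120), since Incenp and Cep192 were lost in PB115, and Bora, Incenp and Cep192 in PB119. Counting transcription starts only gave 2 genes (Aurka and Birc5) in PB115, 2 in PB119 and 2 in PB120, because 5 of the genes have no start in the promoter table. The additional PB120 gene at 5000 bp was Aurkb, through the peak at the transfer RNA gene. Leaving out summits within 1000 bp of a transfer RNA gene, an alternative chosen after seeing the data, gave 2. No share of coding genes was computed for that alternative. Genes bound in all lines numbered 2, beside 3153 of 21887 coding genes. Without PB120 they numbered 6, beside 5117 coding genes, and without PB115 they numbered 2, beside 3514. Without PB119 they numbered 2, and the matching count of coding genes was not computed. At a reciprocal overlap of 50%, 1 gene (Birc5) had overlapping peaks in PB119 and PB120, against 2 at 1 bp, beside 54.6% and 93.9% of coding genes bound in both. Of the 71 pathway genes, 28 were bound in PB119 with equal list lengths, 11 in PB120 at 1e-20, and 8 in all lines at 1e-20. In the same order the shares of coding genes were 18.2%, 11.2% and 9.35%. Without the added 1, folds rose beyond their counting interval in 7 of 14 cases, at Aurka to 58.5 in PB115, 39.2 in PB119 and 20.7 in PB120. Taking the peak nearest the gene end changed none of the 14 folds, and scaling to the common regions moved none of 10 ratios beyond its interval. No paired analysis was possible because no line had a replicate. The part of depth in the missing PB120 calls was not tested, and the counting error of the small input backgrounds is in no interval.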
